A study of Mus musculus with 3 samples.

Results

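Forkhead genes encode the FOX transcription factors, which share a winged-helix DNA-binding domain. The genes examined were the 44 protein-coding mouse genes with symbols from Foxa1 to Foxs1, of 21000 protein-coding genes in the curated RefSeq annotation of GRCm38, the assembly also called mm10. Membership was set by symbol, with no measured value in the rule. The antisense RNA genes Foxd2os, Foxl2os and Foxo6os also carry such symbols but encode no forkhead protein, and they were not counted (each was the nearest gene of 0 peaks). A peak was assigned to a forkhead gene when that gene had the nearest transcription start site (TSS) or when the peak lay within 50 kb of its TSS. This gave 43 of the 10069 NR2F2 peaks. A single peak lay within reach of Foxc2, Foxf1 and Foxl1, so that the 43 peaks made 45 pairs of a gene and a peak.

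The peaks came from chromatin immunoprecipitation with sequencing (ChIP-seq) for NR2F2, also called COUP-TFII, in CD-1 mouse fetal testes at E14.5. There were 2 ChIP replicates, each from 30 pooled testes, and 1 input library of chromatin that was not immunoprecipitated. All 3 libraries came from whole testes freed of the mesonephros, so a count summed over all cell types of the organ, and a site bound in few cells cannot be told apart from a site bound weakly in many. No treatment or mutant was compared, and no expression was measured in these libraries.

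NR2F2 is an orphan nuclear receptor that marks the interstitial and mesenchymal cells of many organs, including the progenitors of the steroidogenic Leydig cells in the fetal testis. Nuclear receptors of its kind recognise short hexamers, often as a pair in tandem. Forkhead factors have many roles: FOXA proteins open closed chromatin, FOXO proteins are held in the cytoplasm by insulin and AKT signalling, FOXC, FOXF and FOXL1 act in mesenchyme and vessels, FOXL2 maintains the ovarian granulosa cell, and FOXM1 drives genes of the dividing cell.

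The DNA under 6 of the forkhead peaks is shown first because each held a tandem pair of the core motif, AGGTCA or GGGTCA, with 0 to 2 bases between the copies. Another such peak, at the Ccdc84 start near Foxr1, is not printed because it lies in an untranslated region of Ccdc84. The sequences are the reference plus strand of mm10 over the whole 300 bp peak, and capitals mark every core motif on either strand, so that a motif on the minus strand reads TGACCT or TGACCC. The first is the forkhead peak with the most ChIP reads, and the second holds 3 core motifs in a row.
Foxk1, 33.8 kb upstream (chr5:142367398-142367697, plus strand): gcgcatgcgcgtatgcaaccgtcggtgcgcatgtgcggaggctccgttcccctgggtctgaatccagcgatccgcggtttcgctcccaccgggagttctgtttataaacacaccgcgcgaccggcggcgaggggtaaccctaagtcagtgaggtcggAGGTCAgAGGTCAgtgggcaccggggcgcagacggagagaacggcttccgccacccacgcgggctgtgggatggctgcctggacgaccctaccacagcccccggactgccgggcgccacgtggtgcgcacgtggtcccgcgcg
Foxp4, 53.8 kb upstream (chr17:47978446-47978745, plus strand): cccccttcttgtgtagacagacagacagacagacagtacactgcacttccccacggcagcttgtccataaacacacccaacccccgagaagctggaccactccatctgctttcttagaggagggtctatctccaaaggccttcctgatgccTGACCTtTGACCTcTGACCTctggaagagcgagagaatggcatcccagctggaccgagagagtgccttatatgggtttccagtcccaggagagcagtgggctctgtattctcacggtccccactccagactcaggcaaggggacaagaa
Foxo3, 106 kb downstream (chr10:42170178-42170477, plus strand): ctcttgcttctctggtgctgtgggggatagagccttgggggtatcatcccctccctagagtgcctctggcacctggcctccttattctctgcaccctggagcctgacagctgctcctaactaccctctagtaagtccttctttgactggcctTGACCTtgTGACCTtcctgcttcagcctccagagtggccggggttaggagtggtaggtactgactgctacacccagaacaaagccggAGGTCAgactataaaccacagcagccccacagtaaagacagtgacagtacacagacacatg
Foxk1, 185 kb upstream (chr5:142216489-142216788, plus strand): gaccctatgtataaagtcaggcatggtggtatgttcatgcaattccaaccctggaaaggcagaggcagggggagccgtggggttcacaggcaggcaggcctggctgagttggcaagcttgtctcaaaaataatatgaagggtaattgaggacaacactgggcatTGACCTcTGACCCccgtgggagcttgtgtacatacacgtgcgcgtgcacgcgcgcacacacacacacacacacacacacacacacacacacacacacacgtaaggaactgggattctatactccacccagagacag
Foxl1, 115 kb downstream (chr8:121242809-121243108, plus strand): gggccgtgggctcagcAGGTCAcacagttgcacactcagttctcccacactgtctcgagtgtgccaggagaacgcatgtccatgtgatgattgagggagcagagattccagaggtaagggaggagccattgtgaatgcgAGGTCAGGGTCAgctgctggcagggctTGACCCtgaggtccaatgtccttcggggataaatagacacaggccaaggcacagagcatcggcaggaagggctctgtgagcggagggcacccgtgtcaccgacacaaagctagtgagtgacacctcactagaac
Foxn3, intron (chr12:99433725-99434024, plus strand): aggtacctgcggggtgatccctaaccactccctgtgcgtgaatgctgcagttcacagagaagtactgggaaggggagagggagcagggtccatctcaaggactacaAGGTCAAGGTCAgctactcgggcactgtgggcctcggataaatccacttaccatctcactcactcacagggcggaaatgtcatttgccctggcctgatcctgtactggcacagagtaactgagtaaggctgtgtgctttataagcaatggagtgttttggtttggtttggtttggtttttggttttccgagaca
In the 33.8 kb Foxk1 peak the pair started at chr5:142367555-142367567 on the plus strand, 1 base apart, and its middle was 13.5 bp from the peak centre. The 53.8 kb Foxp4 peak held overlapping pairs on the minus strand, both with 1 base between the copies, with middles 7.5 and 14.5 bp from the centre. The pair of the Foxo3 peak was spaced by 2 bases and lay 9.0 bp from the centre, while those of the Foxl1 and Foxn3 peaks had no base between the copies.

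The libraries differed widely in their counts at peaks, with a median over the 10069 peaks of 7 reads in the input, 37 in ChIP replicate 1 and 31 in ChIP replicate 2. At the 43 forkhead peaks the input ranged from 0 to 22 reads with a median of 6, ChIP replicate 1 from 12 to 238 with a median of 38, and ChIP replicate 2 from 12 to 166 with a median of 40. Both ChIP replicates were above the input at all 43 peaks. Peaks had been called on the merged ChIP reads, so this order was partly fixed by how the peaks were chosen. The plot of counts at each peak shows the 3 libraries side by side.

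**Figure D1:**
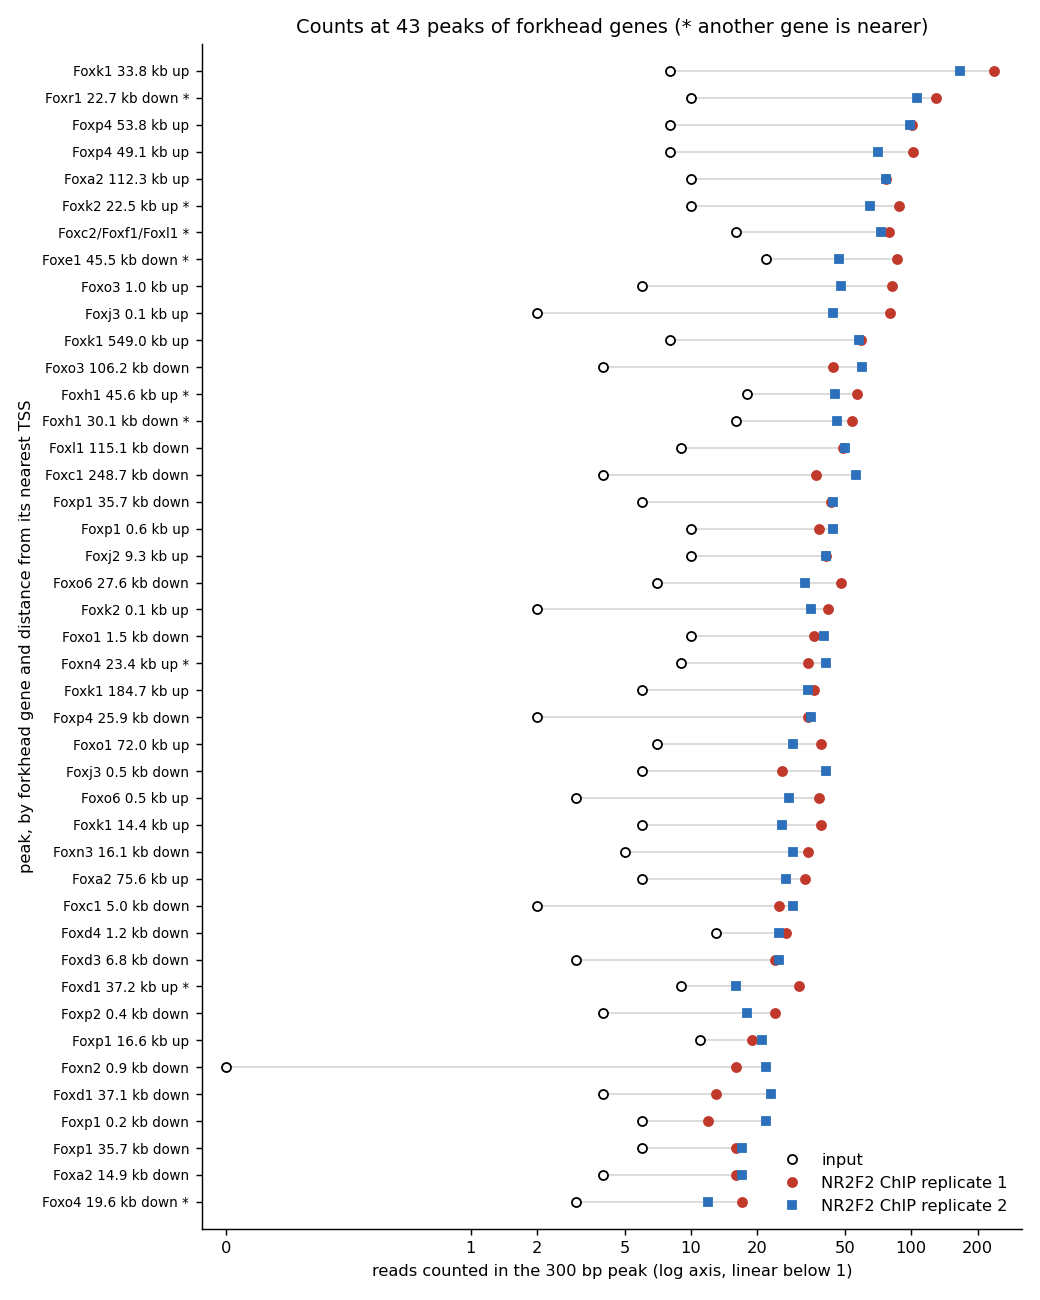
Reads counted in each of the 43 forkhead peaks (horizontal axis, logarithmic above 1) in the input and in both ChIP replicates, with each row labelled by gene and by the distance and side of the closest TSS of that gene. Both ChIP points lie to the right of the input point in every row, and the Foxk1 peak 33.8 kb upstream reaches 238 and 166 reads against 8 in the input.

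Of the 44 forkhead genes, 25 (56.8%) had a peak and 19 had none, beside 57.9% of all 21000 protein-coding genes. For 18 genes (40.9%) the peak had the forkhead TSS as its nearest, beside 33.2% of all genes. The other 7, Foxc2, Foxe1, Foxf1, Foxh1, Foxn4, Foxo4 and Foxr1, had a peak only within 50 kb and with the TSS of another gene nearer. More than 1 peak was found at 13 genes (29.5%), beside 28.1% of all genes. The highest numbers were 5 peaks at Foxp1, 4 at Foxk1 and 3 each at Foxa2 and Foxp4. These shares were close to those of all genes.

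Of the 43 peaks, 34 were nearest to a forkhead gene, and 9 of these 34 lay more than 50 kb from it. The other 9 peaks had another gene nearer, and 5 of them were TSS proximal to that gene, that is, they overlapped its TSS or lay up to 1 kb upstream. A peak nearest to the forkhead TSS and proximal to it was found at 5 genes, Foxj3, Foxk2, Foxo3, Foxo6 and Foxp1. The map of peak positions shows that most other peaks lay farther out. Over the 44 genes, the median distance to the closest peak was 28.0 kb, beside 35.5 kb over all genes.

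**Figure D2:**
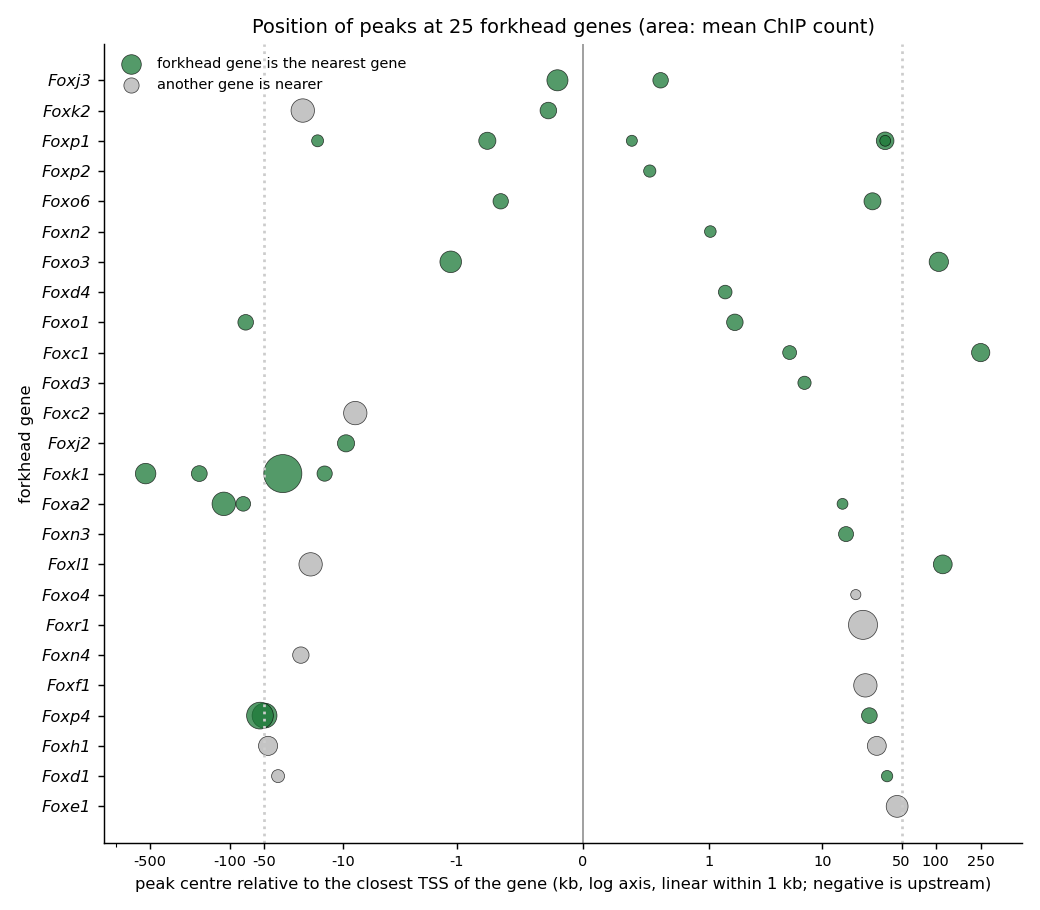
Position of each peak's centre relative to the closest TSS of its forkhead gene (horizontal axis in kb, logarithmic with a linear part near 0, negative upstream), with 1 row per gene. Peaks reach from the start sites of Foxj3, Foxk2, Foxo3, Foxo6 and Foxp1 out to 549 kb upstream of Foxk1.

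The FOXK genes had the forkhead peak with the most ChIP reads. FOXK1 and FOXK2 are widely expressed forkhead repressors of autophagy and starvation genes. The peak 33.8 kb upstream of Foxk1 (Gene ID 17425, chr5:142367398-142367697), outside any curated gene, held 8 input reads, 238 and 166 reads in the ChIP replicates, on average 202 ± 50.9 (SD, n = 2). By summed ChIP reads it ranked 12 among all 10069 peaks. Its GC content was 68.3%, and it held 37 CpG dinucleotides against a median of 14 over the forkhead peaks. The start of a predicted noncoding RNA, Gm31068, which is not in the curated set, lay 1728 bp away. Upstream peaks at 14.4 kb (6 input reads, 39 and 26 ChIP reads), 185 kb (6, 36 and 34) and 549 kb (8, 59 and 58) were weaker, and the farthest of them lay in an intron of Sdk1.

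At Foxk2 (Gene ID 68837), a peak 123 bp upstream of the TSS (chr11:121259565-121259864) held 2 input reads and 42 and 35 ChIP reads. A larger peak 22.5 kb upstream held 10 input reads and 88 and 65 ChIP reads. That peak lay in a coding exon at the start of Narf, which is the nearer gene.

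The FOXO genes all had a peak. FOXO factors switch on genes of metabolism, stress resistance and cell cycle arrest when insulin signalling is low. Foxo3 (Gene ID 56484) had a peak 976 bp upstream of its TSS (chr10:42277671-42277970) with 6 input reads and 82 and 48 ChIP reads. Another peak 106 kb downstream of the TSS and outside any curated gene (chr10:42170178-42170477) held 4 input reads and 44 and 60 ChIP reads. The order of the replicates was opposite at these peaks.

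Foxo6 (Gene ID 329934) had a peak 500 bp upstream of its TSS (chr4:120287761-120288060) with 3 input reads and 38 and 28 ChIP reads, and a peak 27.6 kb downstream with 7 input reads and 48 and 33 ChIP reads. Foxo1 (Gene ID 56458) had an intronic peak 1.55 kb downstream of its TSS (chr3:52269886-52270185) with 10 input reads and 36 and 40 ChIP reads. Another peak lay 72.0 kb upstream of Foxo1 with 7 input reads and 39 and 29 ChIP reads. Foxo4 (Gene ID 54601), on the X chromosome, was reached only by a weak peak in a coding exon of Med12, 19.6 kb downstream, with 3 input reads and 17 and 12 ChIP reads.

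Among the FOXP genes, which encode repressors that act as dimers, Foxp4 had the strongest peaks and Foxp1 the most. The Foxp4 (Gene ID 74123) peaks 53.8 kb upstream (chr17:47978446-47978745) and 49.1 kb upstream (chr17:47973690-47973989) were 4456 bp apart and both lay outside curated genes. The first held 8 input reads and 101 and 99 ChIP reads, a mean of 100 ± 1.41 (SD, n = 2), and ranked 202 among all peaks. The second held 8 input reads and 102 and 71 ChIP reads and ranked 350. The start of a predicted noncoding RNA, Gm29938, also outside the curated set, lay 1572 bp from the first and 2885 bp from the second. Another peak, in a Foxp4 intron 25.9 kb downstream of the TSS, held 2 input reads and 34 and 35 ChIP reads.

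Foxp1 (Gene ID 108655) is a long gene with 4 curated start sites, and its 5 peaks spread over them. The peak with the most ChIP reads lay in an intron 35.7 kb downstream of the closest TSS (chr6:99485039-99485338), with 6 input reads and 43 and 44 ChIP reads. The peak 606 bp upstream of a TSS held 10 input reads and 38 and 44 ChIP reads. The other 3 Foxp1 peaks were intronic, with 12 to 22 ChIP reads against 6 to 11 input reads. Foxp2 (Gene ID 114142), known for its role in speech and vocal learning, had 1 intronic peak 382 bp downstream of its TSS (chr6:14901731-14902030), with 4 input reads and 24 and 18 ChIP reads. Foxp3, which defines regulatory T cells, had none within 50 kb.

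Of the FOXA pioneer genes, only Foxa2 had a peak. Foxa2 (Gene ID 15376) is known as a regulator of endoderm, liver and floor plate. Its strongest peak lay 112 kb upstream (chr2:148159273-148159572), with 10 input reads and 77 reads in each ChIP replicate, and ranked 535 among all peaks. The other Foxa2 peaks, 75.6 kb upstream and 14.9 kb downstream, held 6 and 4 input reads, with 33 and 27 ChIP reads in the first and 16 and 17 in the second. All 3 lay outside curated genes.

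The mesenchymal genes Foxf1 (Gene ID 15227), Foxc2 (Gene ID 14234) and Foxl1 (Gene ID 14241) form a cluster on chromosome 8 and shared 1 peak (chr8:121108215-121108514). That peak held 16 input reads and 79 and 73 ChIP reads, a mean of 76.0 ± 4.24 (SD, n = 2). It lay at the TSS of Mthfsd, 7.66 kb upstream of Foxc2, 19.2 kb upstream of Foxl1 and 23.8 kb downstream of Foxf1, and was not counted as nearest to any of them. Foxl1, a gene of the mesenchymal cells beneath gut epithelium, had another peak 115 kb downstream of its TSS (chr8:121242809-121243108) with 9 input reads and 49 and 50 ChIP reads.

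Foxc1 (Gene ID 17300), needed in eye and vessel development, had a peak 5.01 kb downstream of its TSS, just outside the gene, with 2 input reads and 25 and 29 ChIP reads. Its peak with more ChIP reads was 249 kb downstream in an intron of Gmds (chr13:32055322-32055621), with 4 input reads and 37 and 56 ChIP reads. Foxd1 (Gene ID 15229), a marker of kidney stroma, had a peak 37.2 kb upstream at the start of Btf3 (chr13:98316705-98317004) with 9 input reads and 31 and 16 ChIP reads. The peak on its other side, 37.1 kb downstream, held 4 input reads and 13 and 23 ChIP reads. Both Foxd1 peaks were among the weaker ones of the family.

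Foxd3 (Gene ID 15221), a neural crest and pluripotency factor, had 1 peak 6.83 kb downstream of its TSS (chr4:99663124-99663423) with 3 input reads and 24 and 25 ChIP reads. Foxd4 (Gene ID 14237) had a peak in its own coding exon (chr19:24899471-24899770) with 13 input reads and 27 and 25 ChIP reads, among the smallest ratios seen. Foxe1 (Gene ID 110805), a thyroid factor, was reached by a peak 45.5 kb downstream at the TSS of Trmo (chr4:46389174-46389473). It held 22 input reads, the most of any forkhead peak, and 86 and 47 ChIP reads.

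Foxj3 (Gene ID 230700), a regulator of muscle and of spermatogenesis, had peaks on either side of a start site, 518 bp apart. The peak 50 bp upstream (chr4:119539312-119539611) held 2 input reads and 80 and 44 ChIP reads, a mean of 62.0 ± 25.5 (SD, n = 2). The peak in the intron held 6 input reads and 26 and 41 ChIP reads. The upstream peak was higher in replicate 1 and the intronic one in replicate 2. In the GENCODE annotation, the upstream peak also overlapped the start of the protein-coding model Frg2f1. Foxj2 (Gene ID 60611) had 1 peak 9.27 kb upstream (chr6:122810619-122810918), with 10 input reads and 41 reads in each ChIP replicate, and Foxj1, the master gene of motile cilia, had none within 50 kb.

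Of the FOXN genes, Foxn2 (Gene ID 14236) had an intronic peak 883 bp downstream of its TSS (chr17:88441587-88441886) that was the only forkhead peak with 0 input reads. Its ChIP replicates held 16 and 22 reads, at least 5.33-fold and 7.33-fold above a floor of 3 input reads. Foxn3 (Gene ID 71375), which takes part in the DNA damage checkpoint, had an intronic peak 16.1 kb downstream of its TSS (chr12:99433725-99434024) with 5 input reads and 34 and 29 ChIP reads. Foxn4 (Gene ID 116810), a retinal factor, was reached by a peak in an intron of Myo1h, 23.4 kb upstream (chr5:114297158-114297457), with 9 input reads and 34 and 41 ChIP reads. Foxn1, the thymic epithelial gene mutated in nude mice, had none.

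Foxr1 (Gene ID 382074), a gene with germ cell expression, was reached by a strong peak 22.7 kb downstream at the TSS of Ccdc84 (chr9:44417867-44418166). It held 10 input reads and 129 and 106 ChIP reads, a mean of 118 ± 16.3 (SD, n = 2), and ranked 104 among all peaks. Foxh1 (Gene ID 14106), a partner of SMAD proteins in nodal signalling, lay within 50 kb of 2 peaks in coding exons of other genes. One, in Tonsl 30.1 kb downstream (chr15:76639565-76639864), held 16 input reads and 54 and 46 ChIP reads. The other, in Lrrc24 45.6 kb upstream (chr15:76715590-76715889), held 18 input reads and 57 and 45 ChIP reads. Input was high at both.

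The 19 forkhead genes without a peak lay at least 60.5 kb from the closest one, with a median of 186 kb. For 8 of them a peak lay between 50 and 100 kb away: Foxe3 (60.5 kb), Foxj1 (61.0 kb), Foxm1 (61.7 kb), Foxd2 (65.4 kb), Foxs1 (82.0 kb), Foxp3 (90.5 kb), Foxb2 (93.4 kb) and Foxa3 (94.8 kb). The other 11 included Foxn1 (124 kb), Foxf2 (186 kb), Foxi3 (187 kb), Foxb1 (228 kb), Foxq1 (253 kb), Foxl2 (288 kb), Foxi2 (303 kb), Foxa1 (315 kb), Foxi1 (422 kb) and Foxr2 (782 kb). The ovarian gene Foxl2 and the proliferation gene Foxm1 were thus among the genes without a peak. Reads outside peaks were not analysed here, so no count can be given at these genes.

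Longer forkhead genes were more often the nearest gene of a peak. Of the 15 forkhead genes longer than 15 kb, a limit set after the lengths were seen, 12 were nearest to a peak, as against 6 of the 29 shorter ones. The same split over all genes gave 43.2% of 11127 longer and 22.0% of 9873 shorter genes. The median length was 49872 bp for forkhead genes nearest to a peak and 3877 bp for the others. Foxp1 (595652 bp), Foxp2 (540629 bp) and Foxn3 (254981 bp) were the longest, and all 3 had a peak. Foxs1 (1311 bp) and Foxb2 (1515 bp) were the shortest, and neither had one.

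Other developmental families were counted in the same way. A peak was found at 13 of 19 Sox genes (68.4%), at 5 of 13 Tbx genes (38.5%) and at 3 of 6 Gata genes. The 95% Wilson interval of the forkhead share, 42.2% to 70.3%, held the Sox and Gata shares and the share of all genes, and the Tbx interval, 17.7% to 64.5%, overlapped it. These intervals treat genes as independent, which neighbouring genes are not.

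**Figure D3:**
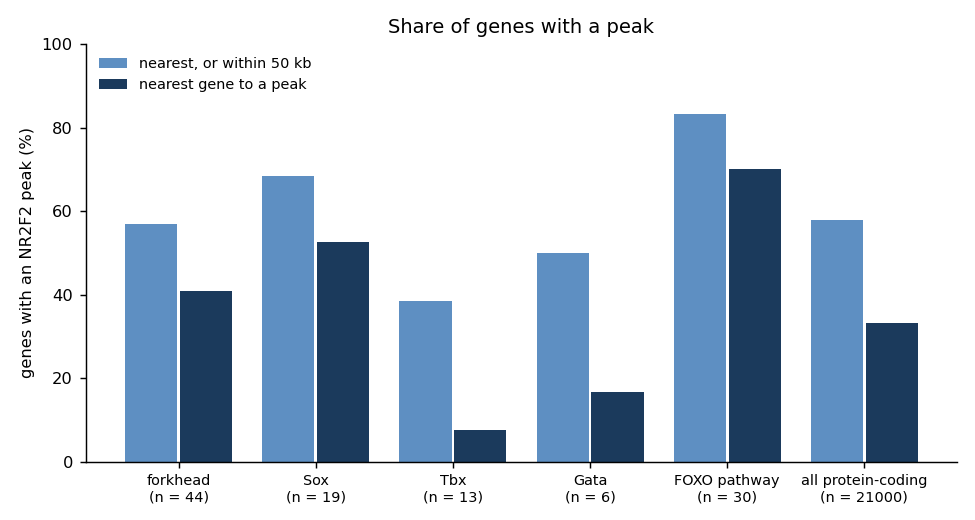
Share of genes (vertical axis, percent) with an NR2F2 peak, nearest or within 50 kb, and share of genes that were the nearest gene of a peak, for forkhead, Sox, Tbx and Gata genes, for a list of FOXO pathway genes and for all protein-coding genes. Forkhead genes stand at 56.8% and 40.9%, beside 57.9% and 33.2% for all genes.

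ChIP reads were tested against input at every peak with the edgeR quasi-likelihood test, taking the libraries as equally deep because the peak files give no library totals. Since the peaks had been called on these same ChIP reads, a higher ChIP count was largely fixed beforehand, and the calls describe the peaks rather than test them independently. Of the 43 forkhead peaks, 37 (86.0%) were above input at an adjusted p under 0.05, beside 80.7% of all peaks. The 6 not called were the peaks at Foxd4 (adjusted p = 0.0517), the Trmo start near Foxe1 (0.0993), the Btf3 start near Foxd1 (0.154), the other Foxd1 peak (0.0732) and the Foxp1 peaks 241 bp downstream (0.127) and 16.6 kb upstream (0.0712) of a TSS. The fitted log2 difference between ChIP and input had a median of 2.46 at forkhead peaks and 2.32 at all peaks, and ran from 0.86 to 4.87 at forkhead peaks with an input read. If the ChIP libraries were sequenced 2 times deeper than the input, edgeR called 0 of the 43 and 0 of all peaks, with 22 forkhead peaks (51.2%) and 39.0% of all peaks at an unadjusted p under 0.05. The number of calls therefore depends on the assumed depth, although the fitted difference turned negative at only 1 of the 43 forkhead peaks. It also depends on taking the ChIP replicates as equally deep. After the replicates were scaled to each other, 5 of the 6 peaks named above were called. With a robust fit, 4 of the 6 were called.

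The plain ratio of ChIP to input reads, with 0.5 added to each count, had a median over forkhead peaks of 5.62 in the first ChIP replicate and 5.31 in the other, on average 5.46 ± 0.218 (SD, n = 2). Over all peaks the medians were 5.11 and 4.39, a mean of 4.75 ± 0.505 (SD, n = 2). The 1001 peaks ranked up to 1000 by ChIP reads, ties included, held 9 of the forkhead peaks (20.9%) and 9.94% of all peaks. These 9 were  the Foxk1 peak at 33.8 kb, both upstream Foxp4 peaks, the farthest upstream Foxa2 peak, the promoter-side Foxo3 peak and those at the starts of Ccdc84, Mthfsd, Narf and Trmo.

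**Figure D4:**
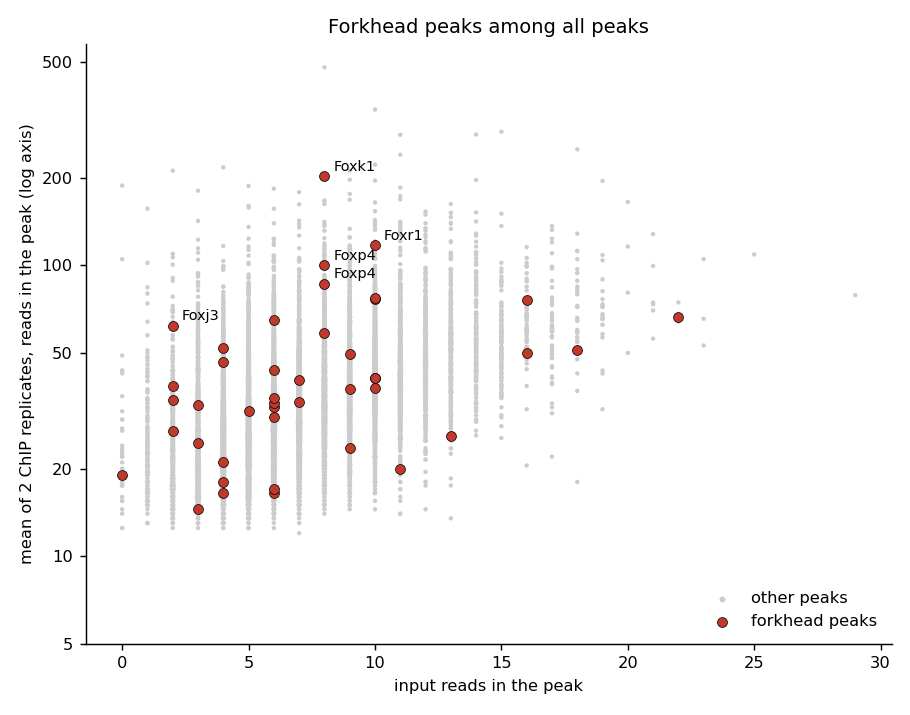
Mean ChIP reads of both replicates (vertical axis, logarithmic) against input reads (horizontal axis) at each peak, forkhead peaks in colour over all other peaks in grey. The Foxk1 peak at 33.8 kb stands highest among the forkhead peaks with a mean of 202 reads over 8 input reads.

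Another test used TMM scaling of the counts, and so asked which peaks had a ChIP to input ratio above or below that of the typical peak, whatever the depths. By edgeR, 2 forkhead peaks (4.65%) were above it, beside 1.53% of all peaks. The Foxk1 peak at 33.8 kb was above by a log2 value of 2.33 ± 0.38 (SE, adjusted p = 8.96e-07), and by adjusted p = 0.0386 with DESeq2. The Foxj3 peak 50 bp upstream was above by 2.61 ± 0.77 (SE, adjusted p = 0.0446), a value with 2 input reads behind it that missed the threshold without TMM (adjusted p = 0.0868) and with DESeq2 size factors (adjusted p = 0.342). The Foxr1 peak at the Ccdc84 start reached 1.23 ± 0.41 (SE, adjusted p = 0.109), and the 53.8 kb Foxp4 peak 1.33 ± 0.46 (SE, adjusted p = 0.137).

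No forkhead peak was called below the typical peak at an adjusted p under 0.05 by edgeR (0 of 43), beside 0.0497% of all peaks. DESeq2 could adjust p for only 8 of the 43, and 0 of these 8 were called below. At an unadjusted p under 0.05, edgeR found 12 forkhead peaks (27.9%, 10 higher and 2 lower), beside 10.4% of all peaks, and DESeq2 found 2 (4.65%), beside 2.11% of all peaks. Both peaks that were lower by edgeR were weak intronic or exonic ones, at Foxp1 (16.6 kb) and Foxd4.

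The replicates were compared at each peak with an exact two-sided binomial test against the share of replicate 1 over all peaks, 54.0%. None of the 43 forkhead peaks was called different (0 of 43, smallest adjusted p = 0.327), beside 0.0993% of all peaks, and 9 (20.9%) had an unadjusted p under 0.05, beside 8.83% of all peaks. Reads were higher in replicate 1 at 24 forkhead peaks, higher in replicate 2 at 17 and equal at 2, those of Foxj2 and the 112 kb peak of Foxa2.

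Shares of position, base content and motifs over all peaks cover the 10064 peaks on the assembled chromosomes. By position, 10 forkhead peaks (23.3%) were TSS proximal to their nearest gene, as against 36.0% of all peaks, and 19 (44.2%) were intergenic, as against 25.8%. Gene bodies held 13 (30.2%, all peaks 33.9%), and 1 lay up to 10 kb upstream of the nearest TSS (2.33%, all peaks 4.34%). The midpoint of 22 peaks (51.2%, all peaks 39.4%) lay outside any curated gene and that of 13 in an intron. GC content had a median of 62.0% at forkhead peaks and 60.7% at all peaks. CpG dinucleotides had a median of 14 per peak and 18 over all peaks.

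The peak sequences were searched on both strands for 4 patterns. The core motif was in 29 forkhead peaks (67.4%), in 58.9% of all peaks and in 26.6% of windows of the same length 2 kb to either side of all peaks. The extended NR2F2 motif, AGAGGTCA or AGGGGTCA, which contains the core, was in 7 (16.3%), in 10.5% of all peaks and in 2.80% of the windows. A direct repeat, that is, 2 core motifs on the same strand with 0 to 5 bases between them, was in 8 (18.6%), in 4.47% of all peaks and in 0.298% of the windows. Of the 86 windows beside forkhead peaks themselves, 0 held a direct repeat. The 1-base spacing was in 4 forkhead peaks (9.30%) and in 2.37% of all peaks. These shares are counts of letters and carry no test.

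The 8 peaks with a direct repeat were at Foxk1 (33.8 and 185 kb), Foxp4 (25.9 and 53.8 kb), Foxl1 (115 kb), Foxo3 (106 kb), Foxn3 and the Ccdc84 start near Foxr1. Every repeat lay within 38 bp of the peak centre. Mean ChIP reads at these peaks ran from 31.5 to 202 with a median of 50.8, as against a median of 37.5 at the other forkhead peaks. Over all peaks the medians were 37.0 with a repeat and 34.0 without. The peaks at the promoters of Foxk2, Foxo3, Foxo6 and Foxj3 held no direct repeat.

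A forkhead recognition motif, TGTTTAC or TGTTTAT, was in 5 forkhead peaks (11.6%), in 4.63% of all peaks and in 11.5% of the windows 2 kb from all peaks. Beside the forkhead peaks it was in 14.0% of the windows. The share in forkhead peaks was thus like that of flanking DNA. In the 33.8 kb Foxk1 peak printed above, 2 overlapping matches of it lay upstream of the core motif pair.

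**Figure D5:**
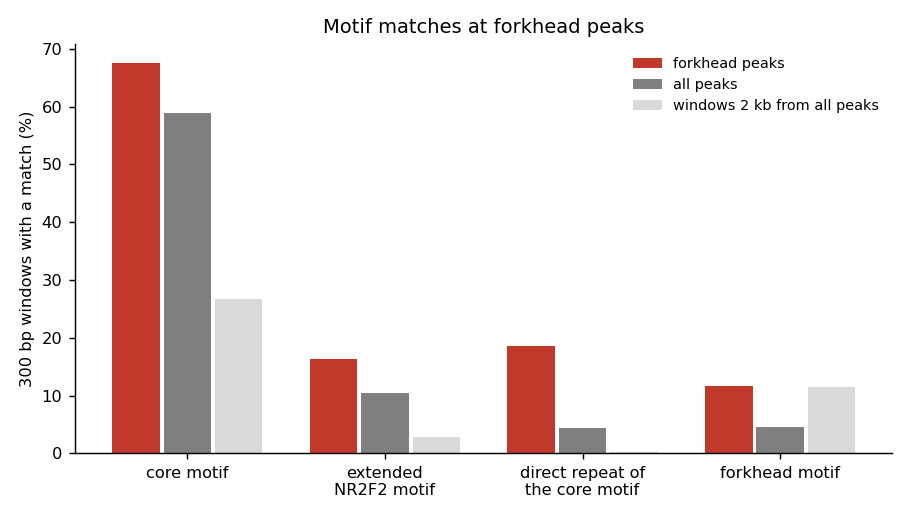
Share of 300 bp windows (vertical axis, percent) that held the core motif, the extended NR2F2 motif, a direct repeat of the core motif or the forkhead motif, for forkhead peaks, all peaks and windows 2 kb away. A direct repeat was in 18.6% of forkhead peaks, 4.47% of all peaks and 0.298% of windows 2 kb from all peaks.

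Because FOXO proteins are controlled by insulin and AKT signalling, 30 genes of that pathway, including kinases, partners and known FOXO targets, were counted too. Of these, 25 (83.3%, all genes 57.9%) had a peak, 21 (70.0%, all genes 33.2%) as its nearest gene, and Insr, Usp7, Bcl2l11, Bcl6 and Klf2 had none. Their median distance to the closest peak was 355 bp, beside 35452 bp over all genes. These genes were picked with earlier results of these data known, so the shares are a description, and their difference from all genes was not tested. They had 46 peaks, of which 40 (87.0%, all peaks 80.7%) were above input at equal depth by edgeR, with a median fitted log2 difference of 2.29. By edgeR 0 of the 46 were above or below the typical peak (all peaks 1.53% and 0.0497%), with 7 (15.2%, all peaks 10.4%) at an unadjusted p under 0.05. DESeq2 also called 0, but gave no adjusted p at 45 of them.

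The FOXO pathway peak with the most ChIP reads was near Txnip, an inhibitor of thioredoxin, with 9 input reads and 98 and 80 ChIP reads, and had Gm15441 as its nearer gene. At the TSS of Sod2, which encodes the mitochondrial superoxide dismutase, a peak held 4 input reads and 91 and 57 ChIP reads. At Igf1r, the receptor of insulin-like growth factor, a peak held 8 input reads and 62 and 53 ChIP reads. None of the 46 was also a forkhead peak (0 shared).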

How the data were processed

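NR2F2 ChIP-seq was performed on pooled CD-1 fetal testes at E14.5, with 2 ChIP libraries and 1 input. Each library had a deposited table of raw counts, 1 per peak, which the authors made. Per the study's methods and the submitters' processing notes, single-end reads were trimmed with Trim Galore 0.6.7, mapped to mm10 with Bowtie2, filtered at a mapping quality of 5 and cleared of duplicates with Picard 1.110. Peaks were called with HOMER 4.11.1 on the merged ChIP reads and set to a width of 300 bp, so every peak had been chosen for its ChIP reads. The counter's settings were not given in the sources used here. Summed over the 10069 peaks, the input had 73251 reads and the ChIP replicates 426784 and 364261. These are not library depths, which were not used here, and 0 columns belonged to no sample.

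From these counts, peaks were assigned to 45756 curated RefSeq transcripts of 26180 genes (GRCm38, coordinates counted from 1, distances from the nearer peak edge), of which 21000 genes were protein-coding. Counts were tested over all peaks with the quasi-likelihood test of edgeR 4.0.16 (limma 3.58.1 under R 4.3.3) and Benjamini-Hochberg adjustment at 0.05, at equal library sizes for ChIP against input and with TMM for peaks against the typical peak. The single input was assumed to vary like the ChIP libraries, and p-values cover only the spread between these samples. Each SE given with an edgeR log2 value is that value's size divided by the square root of the test's F statistic. DESeq2 1.42.0, other scalings, filters and distances were alternatives. The fits were tested on simulated data. Replicates were compared with exact two-sided binomial tests (scipy 1.17.1), which, like the floor of 3 counts and the Wilson 95% intervals, cover counting error only. Sequences were read from GRCm38 (RefSeq). A motif match is a description of letters. Forkhead genes were named with its peaks' counts or the distance to its closest peak, and other genes only where they share or lie nearer to a peak or belong to the FOXO pathway list. A few items are not reported here. The forkhead genes were defined by symbol, but this family, the other lists and the tests were picked with earlier results of these data known.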

Additional observations from a re-analysis of the deposited data

How the results depend on the processing

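Of the 43 forkhead peaks, the equal-depth test called 37 above input, 0 at an assumed ChIP depth 2 times that of the input (also 0 of all peaks), and 9 of the 12 peaks with at least 10 input counts (75.0%, all such peaks 88.5%), where fewer peaks were tested. It called 43 with the ChIP libraries assumed 2 times shallower (all peaks 97.9%), 41 with a robust fit (95.3%, all peaks 97.5%), 42 after scaling the replicates to each other (97.7%, all peaks 97.9%) and 30 with DESeq2 (69.8%, all peaks 59.6%). Relative to the typical peak, the 2 called became 1 with DESeq2 size factors in edgeR (2.33%, all peaks 0.387% in either direction), 1 without TMM (all peaks 1.08%), 1 with DESeq2 (all peaks 0.218%, with no adjusted p at 35 of the 43) and 1 of 12 with at least 10 input counts (8.33%, all such peaks 2.55%). That last call was the Foxr1 peak at the Ccdc84 start (log2 1.55, adjusted p = 0.0136), and the other settings called the Foxk1 peak at 33.8 kb, whose adjusted p ran up to 0.0386. The Foxk1 peak at 33.8 kb and the Foxj3 peak 50 bp upstream, with 8 and 2 input reads, were not tested under the filter of 10 input counts. The median log2 ratio of forkhead peaks, 2.45, moved to 1.89 with 5 added to each count, to 1.94 with at least 10 input counts and to 2.61 at peaks nearest to a forkhead gene, and ranged from 2.41 to 2.49 without either replicate. Using the core in place of the extended NR2F2 motif raised the peaks with a match from 7 to 29, by construction, and extending the peaks by 100 bp gave 8. Genes with a peak numbered 20 at 20 kb, 33 at 100 kb, 18 by nearest TSS only and 25 with predicted transcripts included. With predicted transcripts the assigned peaks fell from 43 to 36. The sign turned in 8 cases, 0 of them at a peak called in the same comparison. At an assumed 2 times deeper ChIP, the Foxp1 peak 16.6 kb upstream went from a log2 difference of 0.86 to -0.14 and the Foxd4 peak from 0.99 to 0.0. Relative to the typical peak, the Foxa2 peak at 75.6 kb turned to -0.0199 with DESeq2 size factors, -0.11 without TMM and -0.0215 with DESeq2, the Foxp2 peak to -0.0421 without TMM, and, with at least 10 input counts, the Foxp1 peak at 606 bp to 0.0430, the Foxj2 peak to 0.0407 and the peak shared by Foxc2, Foxf1 and Foxl1 to 0.25. No paired analysis was possible because there was only 1 input library. Depth limits all ratios, since the input had a median of 6 reads at forkhead peaks.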
